A study of Homo sapiens with 6 samples.

Results

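The genes described here are 10 regulators that hold the epithelial state of a cell: the splicing factors ESRP1 and ESRP2, the grainyhead factors GRHL1, GRHL2 and GRHL3, the zinc finger repressors OVOL1 and OVOL2, the ETS factors ELF3 and EHF, and the Krüppel-like factor KLF5. They were chosen by symbol, with earlier results of these data known, and all 10 were found among the 30330 genes listed for each library. RNA-seq was available for 3 libraries of H1975/OSI, a derivative of the human lung adenocarcinoma line NCI-H1975 that had been made resistant to the EGFR kinase inhibitor osimertinib, and for 3 control libraries of NCI-H1975. The resistant line was obtained by stepwise exposure to 0.03, 0.1, 0.3, 1 and 3 µM osimertinib for 7 months, per the labels. The labels do not say whether drug was present at harvest, whether the resistant line is 1 clone, or whether each library of a group had a culture of its own. The p-values therefore reflect library-to-library spread, which may be technical.

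ESRP1 and ESRP2 bind RNA and steer exon choice towards the isoforms of epithelial cells. GRHL factors activate junction genes such as the one for E-cadherin and oppose ZEB1, a repressor of epithelial genes. OVOL factors repress ZEB1 and other drivers of the mesenchymal state. ELF3 and EHF form, with ELF5, the epithelium-specific branch of the ETS family, and KLF5 supports proliferation of basal and progenitor cells in epithelia. Loss of ESRP, GRHL2 and OVOL expression is a known feature of epithelial-mesenchymal transition.

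The resistant line had lost nearly all reads of ESRP1 and GRHL2, had lower levels of ESRP2, EHF and KLF5, and had a higher level of ELF3. OVOL2, scarce in both lines, had 0 resistant and 14 control reads and was called lower. GRHL1, GRHL3 and OVOL1 did not pass the test. Of the 10 genes, 6 fell and 1 rose in the fit over all genes (limma, adjusted p below 0.05). Among all 24560 genes tested, 41.5% were called, 21.1% as lower and 20.4% as higher in the resistant line, so that a call as such is common in this comparison. The median log2 fold change of the 10 genes was -0.97, against 0.01 over all genes tested, and it was also -0.97 with the 3 genes of 3 or fewer resistant reads set to a floor of 3 reads over the group. All 10 passed the filter on low values, which asks for a value of at least 1 in 3 or more libraries. OVOL2 passed it through its control libraries alone, GRHL2 through its 3 control libraries and 1 resistant library, and ESRP1 through its 3 control and 2 resistant libraries. The place of these genes among those tested therefore rests on the group where they are high. Among called list genes named below, MIR205HG, FGFBP1, PRRX1 and KLF1 reached a value of 1 in fewer than 3 resistant libraries. PIGR did so in fewer than 3 control libraries. The groups did not overlap for 7 of the 10 genes, against 50.1% of all genes tested.

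Promoter sequences are shown for the called genes that had an entry in the set of RefSeq promoters used here (GRCh38.p14). These are ELF3 and EHF, close relatives that moved in opposite directions, and KLF5, which moved with EHF. Absence from this set does not mean absence from RefSeq. Each sequence holds the 250 bases before an annotated transcription start, 5′ to 3′, and capitals mark letters matching a searched motif on either strand. An entry was matched for 5 of the 10 genes (GRHL1, GRHL3, ELF3, EHF and KLF5).
ELF3, chr1:202010337-202010586, plus strand: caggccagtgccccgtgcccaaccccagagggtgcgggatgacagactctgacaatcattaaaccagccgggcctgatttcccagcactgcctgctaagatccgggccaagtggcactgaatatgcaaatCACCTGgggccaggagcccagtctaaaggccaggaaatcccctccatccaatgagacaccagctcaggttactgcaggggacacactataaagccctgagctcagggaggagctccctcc
EHF upstream start, chr11:34624007-34624256, plus strand: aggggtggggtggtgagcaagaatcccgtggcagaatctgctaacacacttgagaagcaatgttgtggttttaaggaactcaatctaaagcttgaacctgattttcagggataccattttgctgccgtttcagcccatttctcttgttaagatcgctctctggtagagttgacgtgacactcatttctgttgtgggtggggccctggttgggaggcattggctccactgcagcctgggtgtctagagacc
EHF downstream start, chr11:34632316-34632565, plus strand: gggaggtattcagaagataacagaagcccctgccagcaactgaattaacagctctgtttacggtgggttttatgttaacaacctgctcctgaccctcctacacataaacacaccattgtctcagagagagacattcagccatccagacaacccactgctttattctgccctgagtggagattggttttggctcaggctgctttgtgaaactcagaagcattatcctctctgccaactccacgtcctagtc
KLF5 upstream start, chr13:73054726-73054975, plus strand: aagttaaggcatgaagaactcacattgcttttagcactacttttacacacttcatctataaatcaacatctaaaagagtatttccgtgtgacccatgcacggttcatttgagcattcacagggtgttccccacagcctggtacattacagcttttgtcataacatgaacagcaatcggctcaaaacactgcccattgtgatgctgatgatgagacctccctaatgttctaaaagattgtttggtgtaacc
KLF5 downstream start, chr13:73058755-73059004, plus strand: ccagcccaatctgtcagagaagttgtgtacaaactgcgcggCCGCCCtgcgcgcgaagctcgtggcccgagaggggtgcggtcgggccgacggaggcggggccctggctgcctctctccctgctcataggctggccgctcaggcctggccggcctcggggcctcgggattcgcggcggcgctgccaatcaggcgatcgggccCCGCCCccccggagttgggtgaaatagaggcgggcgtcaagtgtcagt

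The motifs searched were CACCTG, the E-box bound by SNAI and ZEB repressors, AACCGGTT, the grainyhead site, CCGGAA, the core of an ETS site, and GGGCGG, the GC box of SP and KLF factors. AACCGGTT and CCGGAA could overlap at their end letters, AA or TT. No printed window held more than 1 kind of motif. The ELF3 window held 1 E-box, starting 120 bases before the transcription start, and neither EHF window nor either KLF5 window held one. The ELF3 window, both EHF windows and the downstream KLF5 window lie inside the deposited gene bounds. They precede internal starts and not the first base of the gene. Of all 35116 promoter windows of this length, 17.5% held CACCTG, 0.117% AACCGGTT, 14.5% CCGGAA and 42.6% GGGCGG. The downstream KLF5 window held 2 GC boxes and the GRHL1 window 3. The first GRHL3 window held 1 E-box and 1 GC box, and the second GRHL3 window none of the 4 motifs. These are matches of letters and not measured binding.

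Values below are normalized read counts, that is, whole reads scaled by 1 factor for each library, as the authors deposited them. The whole reads behind them were recovered, with 15174126 to 16276518 reads per resistant library and 15813497 to 16588479 per control library. Resistant 1 stood apart from its group, with a chi-square per gene of 10.8 to resistant 2 and 12.1 to resistant 3, where resistant 2 and 3 had 2.32 and control pairs 2.43 to 3.66. Mitochondrial reads made up 5.327% to 5.661% of resistant and 6.461% to 7.339% of control libraries. Median centring of each library shifted every fold change by -0.13 on the log2 scale. Epithelial markers were present in both groups, with sums over the 9 listed of 9 markers of 40681 to 47451 in resistant and 58953 to 62262 in control libraries. Most of it came from keratins. Of the 9, 5 were called lower and 1 higher, where 21.1% of all genes tested were called lower and 20.4% higher. The higher one was NKX2-1, which averaged 461 in resistant and 287 in control libraries. KRT7, NAPSA and SFTPB did not pass, and SFTPB, a surfactant gene of alveolar cells, was near 0 in both groups. For fibroblast markers, 5 of 6 were listed, with sums of 33089 to 36268 in resistant and 5057 to 6073 in control libraries, most of the difference lying in COL1A2, which averaged 29275 in resistant and 698 in control libraries. Of the 5, COL1A2, LUM and PDGFRB were called higher and 0 lower. LUM averaged 4.22 in resistant and 0 in control libraries. PDGFRB averaged 134 in resistant and 100 in control libraries (limma adjusted p = 0.0407, or 0.165 with median centring). COL1A1 averaged 4963 in resistant and 4808 in control libraries and THY1 0.658 in resistant and 1.65 in control libraries, and neither passed. DCN was not analysed here. Endothelial markers summed to 557 to 751 in resistant and 289 to 329 in control libraries for 3 of 3 listed, with CDH5 at 579 in resistant and 126 in control libraries and PECAM1 the other way, at 83.3 in resistant and 181 in control libraries. Leukocyte markers summed to 35.1 to 57.1 in resistant and 26 to 34.9 in control libraries for 2 of 4 listed. These marker sums and the mitochondrial share moved with the group, and their part in the results below was not tested. In bulk libraries, fewer cells that express a gene and less RNA per cell cannot be told apart.

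**Figure D1:**
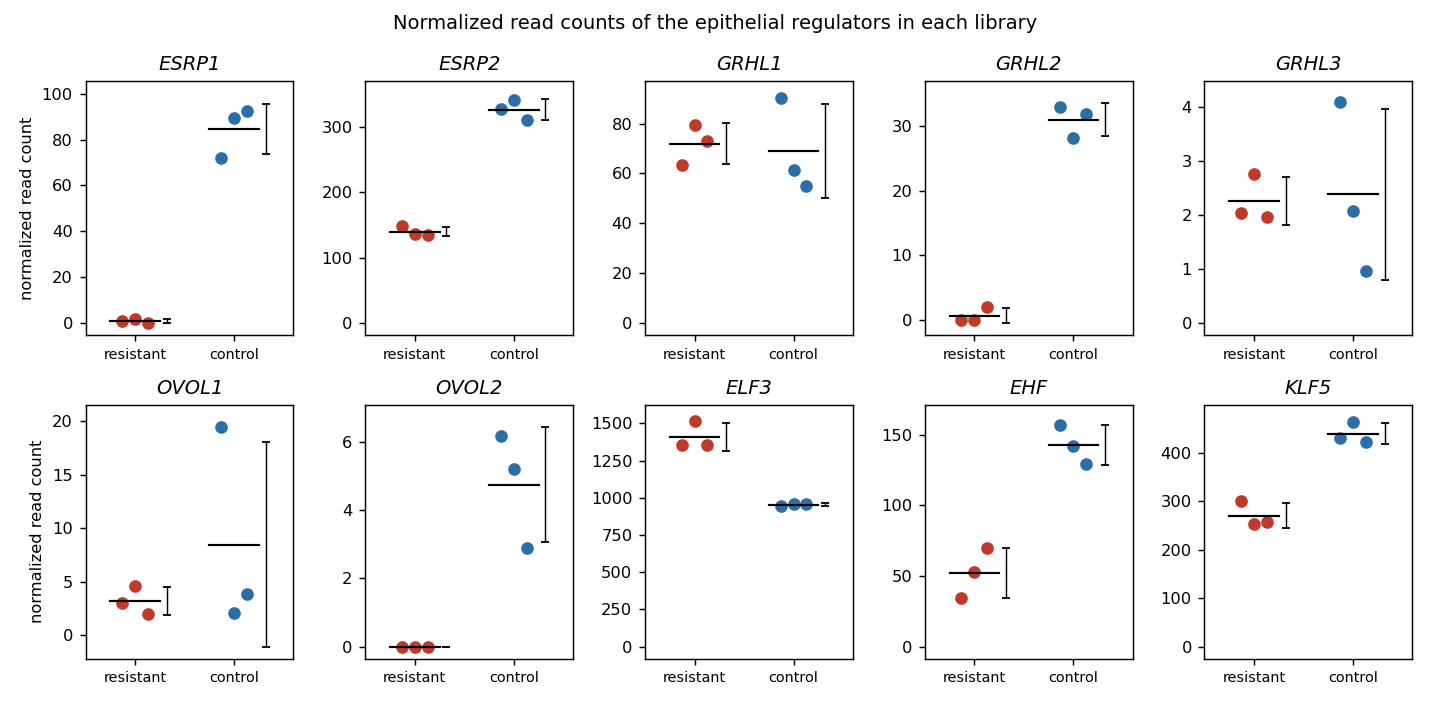
Normalized read counts (y axis, linear, own scale per gene) of the 10 regulators in each library; points are libraries, horizontal lines are group means and brackets are ± 1 SD (n = 3 per group). Resistant libraries lie below all control libraries for ESRP1, ESRP2, GRHL2, OVOL2, EHF and KLF5 and above them for ELF3, and the groups overlap for GRHL1, GRHL3 and OVOL1.

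The splicing regulators were both lower, and ESRP1 was near the limit of detection in the resistant line. ESRP1 (ENSG00000104413, chromosome 8, 94641074 to 94707466, GRCh38) had 1.02, 1.85 and 0.00 normalized reads in resistant libraries, against 71.9, 89.4 and 92.5 in control libraries. Those resistant values stand for 1, 2 and 0 whole reads, so every control library lay far above all resistant ones. Over the groups, 3 resistant and 252 control reads gave a control level 86.9 times the resistant one, with a 95% exact counting interval of 29.4 to 424. The log2 fold change of ESRP1 was -5.57 ± 0.42 (SE; limma adjusted p = 1.10e-10), the 5th lowest of 24560 genes tested.

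ESRP2, its paralog (ENSG00000103067, chromosome 16, 68229111 to 68238102), kept a clear signal. It had 148, 136 and 135 normalized reads in resistant libraries, against 327, 341 and 310 in control libraries. Its log2 fold change was -1.22 ± 0.11 (SE; limma adjusted p = 5.58e-09), and the resistant libraries differed little among themselves. Exons of ESRP2 share 149 of 5563 bases with NFATC3 on the other strand, whose own level was 364 in resistant and 400 in control libraries. Per kb of gene length, ESRP1 made up 0.770 ± 0.765% of the ESRP level in resistant and 22.8 ± 2.65% in control libraries (SD, n = 3), so ESRP2 was the main ESRP transcript in both lines. Gene-level values do not show exon use, and splicing itself was not measured here.

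Among the grainyhead factors, GRHL2 fell to near 0, and GRHL1 and GRHL3 did not pass the test. GRHL2 (ENSG00000083307, chromosome 8, 101492432 to 101669726), the member most tied to E-cadherin and junction genes, had 0.00, 0.00 and 1.97 normalized reads in resistant libraries, against 32.9, 28.1 and 31.8 in control libraries. The resistant group held 2 whole reads, all in resistant 3, and the control group 92, which put the control level at 47.6 times the resistant one (95% exact counting interval 12.8 to 399). The log2 fold change was -4.47 ± 0.52 (SE; limma adjusted p = 1.63e-07), the 21st lowest of all genes tested.

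GRHL1 (ENSG00000134317, chromosome 2, 9951693 to 10002277), which acts in desmosome and skin barrier gene control in mice, had 63.2, 79.4 and 73.0 normalized reads in resistant libraries, against 90.4, 61.3 and 54.9 in control libraries. Control 1 was the highest library and the other control libraries were the lowest, so the groups overlapped. The log2 fold change of 0.09 had a 95% interval of -0.33 to 0.50 (limma adjusted p = 0.765), and its sign turned to -0.05 with median centring and -0.02 with quantile normalization. GRHL3 (ENSG00000158055, chromosome 1, 24319322 to 24364482), needed for neural tube and skin closure in mice, was near the limit of detection in both groups, with 2.04, 2.77 and 1.97 in resistant and 4.11, 2.08 and 0.964 in control libraries. That is 7 reads in each group, and its log2 fold change was 0.05 with a 95% interval of -1.2 to 1.3 (limma adjusted p = 0.962), so a change of 2-fold either way was not detectable at this depth; the sign turned to -0.09 with median centring and -0.01 with quantile normalization. Per kb, GRHL1 supplied 93.0 ± 1.15% of the GRHL level in resistant and 59.8 ± 4.00% in control libraries, and GRHL2 supplied 1.08 ± 1.88% in resistant and 36.2 ± 5.95% in control libraries (SD, n = 3).

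**Figure D2:**
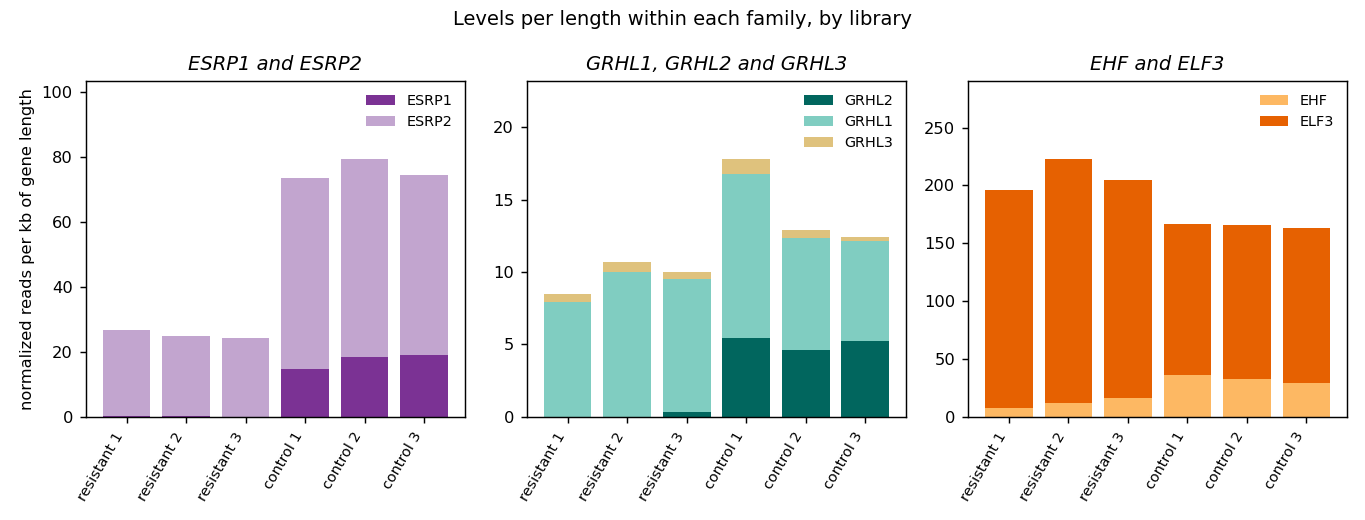
Normalized reads per kb of gene length (y axis, linear, stacked from 0) for the ESRP genes, the GRHL genes and the ELF3 and EHF pair in each library (x axis). ESRP1 and GRHL2 segments are seen in the 3 control libraries and are nearly absent from the 3 resistant ones, and EHF segments are smaller in resistant libraries while ELF3 segments are larger.

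The OVOL repressors were scarce in both lines. OVOL2 (ENSG00000125850, chromosome 20, 17956979 to 18059188), a repressor of ZEB1, had no read in any resistant library, against 6.16, 5.20 and 2.89 normalized reads in control libraries. With the resistant group set to a floor of 3 reads over the group, the 14 control reads gave a 4.83-fold lower level in the resistant line. This allows for no counting error in the 14 control reads, so the fall could be smaller. The fitted log2 fold change of -2.48 (limma adjusted p = 0.00245) depends on the pseudocount. OVOL2 shares 59 exon bases with SNX5 on the same strand, whose own level was 1860 in resistant and 2420 in control libraries.

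OVOL1 (ENSG00000172818, chromosome 11, 65787022 to 65797219), which acts in epidermal differentiation in mice, had 3.06, 4.61 and 1.97 normalized reads in resistant libraries, against 19.5, 2.08 and 3.86 in control libraries. Control 1 alone was high, and the other control libraries lay within the resistant range. The log2 fold change of -0.73 had a 95% interval of -2.02 to 0.57 (limma adjusted p = 0.39), and without control 1 it was 0.08. Without strand information, reads of OVOL1 and of AP001266.1, which lies on the other strand and shares 1044 exon bases with it, cannot be told apart.

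The epithelial ETS factors moved in opposite directions. ELF3 (ENSG00000163435, chromosome 1, 202007945 to 202017188), which is induced in epithelia during differentiation and by inflammatory cytokines, had 1352, 1519 and 1354 normalized reads in resistant libraries, against 943, 958 and 961 in control libraries. All resistant libraries lay above all control libraries, and the control values differed by less than 20 reads. The log2 fold change of ELF3 was 0.56 ± 0.07 (SE; limma adjusted p = 7.02e-07), or 0.43 with median centring (adjusted p = 3.97e-05). ELF3 shares 664 of 7191 exon bases with ELF3-AS1 on the other strand, which averaged 106 in resistant and 69.7 in control libraries, and with AL691482.3 on its own strand, which averaged 9.53 in resistant and 12.1 in control libraries. Both lie far below ELF3 itself.

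EHF (ENSG00000135373, chromosome 11, 34621093 to 34661057), which restrains mesenchymal features in prostate and airway epithelium, had 34.7, 52.6 and 70.0 normalized reads in resistant libraries, against 157, 142 and 129 in control libraries. The highest resistant library stayed below the lowest control library, although the resistant libraries differed among themselves, resistant 1 being the lowest and resistant 3 the highest. Its log2 fold change was -1.48 ± 0.21 (SE; limma adjusted p = 2.81e-06), and it was -1.22 without resistant 1, the lowest library. Per kb, EHF supplied 5.74 ± 1.92% of the sum of ELF3 and EHF in resistant and 19.7 ± 1.70% in control libraries (SD, n = 3).

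KLF5 (ENSG00000102554, chromosome 13, 73054976 to 73077542) had 300, 252 and 258 normalized reads in resistant libraries, against 431, 464 and 422 in control libraries. The groups did not overlap, and resistant 1 was the closest to the control libraries. Its log2 fold change was -0.70 ± 0.10 (SE; limma adjusted p = 3.69e-06). This is the smallest of the 6 falls and, unlike those of ESRP2 and EHF, it was under 2-fold; of all genes tested, 5.72% were called lower by at least 2-fold and 7.86% called higher by at least 2-fold.

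Without resistant 1, the library that stood apart, the log2 fold changes were -5.66 for ESRP1, -1.26 for ESRP2, -4.21 for GRHL2, -2.48 for OVOL2, 0.59 for ELF3 and -0.78 for KLF5, and each of these and EHF stayed below the adjusted p threshold.

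**Figure D3:**
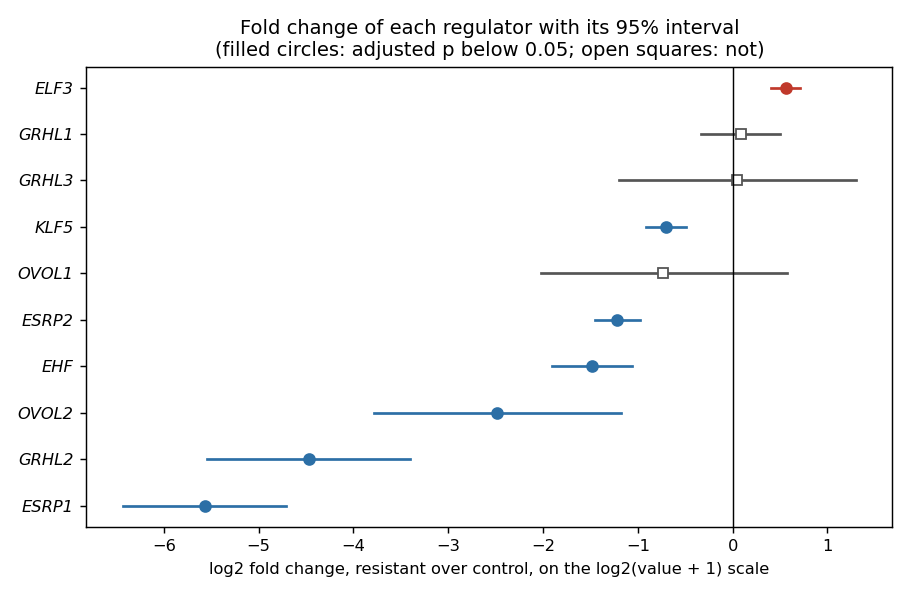
Log2 fold change of each regulator, resistant over control (x axis), with its 95% interval from limma; filled circles passed the adjusted p threshold and open squares did not. ELF3 is the only filled point right of 0, and the intervals of GRHL1, GRHL3 and OVOL1 span 0.

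Set side by side per kb of gene length, ELF3 was the most abundant of the 10 transcripts in both lines, at 196 ± 13.4 normalized reads per kb in resistant and 133 ± 1.37 in control libraries (SD, n = 3). KLF5 came next, at 69.4 ± 6.67 in resistant and 113 ± 5.73 in control libraries, followed by ESRP2 at 25.1 ± 1.29 in resistant and 58.6 ± 2.74 in control libraries and EHF at 12 ± 4.03 in resistant and 32.6 ± 3.19 in control libraries. ESRP1 had place 8 in resistant libraries, at 0.196 ± 0.190, and place 5 in control libraries, at 17.4 ± 2.28. In resistant libraries the ranges of EHF and GRHL1, OVOL1 and GRHL3, ESRP1 and GRHL2, and GRHL2 and OVOL2 overlapped, so the order within these neighbours is not set. In control libraries this held for GRHL2 and OVOL1 and for OVOL1 and OVOL2.

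Genes beside the regulators on their chromosomes were compared with them. For scale, 20.4% of all genes tested were called higher and 21.1% lower. Of the 10 tested genes nearest to ESRP1, 5 on each side, 3 were called higher and 3 lower, their median log2 fold change being 0.44 and their lowest -1.73. Of the 10 nearest to GRHL2, 1 was called higher and 1 lower (median 0.06, lowest -0.78). The neighbours of OVOL2 had a median of -0.11 with 1 higher and 3 lower, and those of EHF a median of -0.26 with 1 higher and 5 lower. Around ELF3, 4 neighbours were higher and 1 lower (median 0.29). All 10 neighbours of GRHL1, itself not called, had negative log2 fold changes, of -2.05 to -0.14 with a median of -0.88, and 6 of them were called lower. ESRP2 had 2 neighbours called higher and none lower (median -0.20), and KLF5 had 2 called lower and none higher (median -0.19). For GRHL3, 1 neighbour was higher and 4 lower, and for OVOL1, 2 were higher and 4 lower. No neighbour of ESRP1, GRHL2 or OVOL2 had a log2 fold change as low as the gene it flanks, while the lowest neighbour of ESRP2 (-1.33), of EHF (-1.59) and of KLF5 (-0.87) lay below the gene it flanks.

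Splicing factors that act beside the ESRPs moved both ways, with 4 of 16 tested genes higher and 6 lower (median log2 fold change -0.09). For comparison, 20.4% of all genes tested were called higher and 21.1% lower. NOVA2 and NOVA1, known as neuronal splicing factors, rose: NOVA2 had 30.6, 22.2 and 28.6 normalized reads in resistant and 3.08, 10.4 and 3.86 in control libraries (log2 fold change 2.19, limma adjusted p = 0.000118). NOVA1 averaged 92.5 ± 3.53 in resistant and 31.4 ± 6.45 in control libraries (log2 fold change 1.55). HNRNPM, which competes with ESRP1 over CD44 exons, fell, with 3573 ± 249 in resistant and 7280 ± 325 in control libraries (log2 fold change -1.03). MBNL3 was also called lower (-1.18), a call lost without resistant 2 (-1.01), control 2 (-1.16) or control 3 (-1.12) and with DESeq2 (-1.29). Singled out after their values were seen, RBM47, an epithelial RNA-binding protein, fell by 0.80 and RBFOX2, which promotes mesenchymal exon choice, rose by 0.41 on the log2 scale, while QKI did not pass (0.14, adjusted p = 0.089), a call gained without resistant 1 (0.15) and with quantile normalization (0.22).

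Of 16 transcripts whose exons ESRPs are known to choose, 3 were called higher in total level, 5 lower and 8 were not called (median -0.12). That is 18.8% higher and 31.2% lower, against 20.4% and 21.1% of all genes tested. CD44, a hyaluronan receptor with epithelial variant exons, fell to 8318 ± 394 in resistant libraries, against 17090 ± 70.6 in control libraries (log2 fold change -1.04, limma adjusted p = 7.57e-13). FGFR3 rose, with 90.7 ± 12.6 in resistant and 34.3 ± 6.86 in control libraries (log2 fold change 1.38). FGFR2, a well known ESRP target singled out after its values were seen, averaged 1.96 ± 1.04 in resistant and 1.68 ± 0.569 in control libraries, too few reads to follow its isoforms at this depth.

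Epithelial genes that grainyhead factors are known to activate were lower for 10 of 14 and higher for 1. Over all genes tested, 21.1% were called lower and 20.4% higher. The list median was -0.89, against 0.01 over all genes. Of the 10, 7 fell by at least 2-fold, where 5.72% of all genes tested were called lower by at least 2-fold. The list was chosen with earlier results of these data known, so its low median is not independent of them. EPCAM, an adhesion molecule, had 17.3, 15.7 and 19.7 normalized reads in resistant libraries, against 391, 353 and 391 in control libraries (log2 fold change -4.36, limma adjusted p = 9.60e-16). The matriptase gene ST14 averaged 28.5 ± 7.89 in resistant and 196 ± 9.82 in control libraries (-2.78), and SPINT1, which encodes an inhibitor of matriptase, 75.7 ± 8.11 in resistant and 374 ± 42.1 in control libraries (-2.29). CDH1, which encodes E-cadherin, fell to 116 ± 16.5, against 368 ± 39.2 in control libraries (-1.66). For these 4 genes, named as the largest falls of the list, the resistant and control libraries did not overlap. The same held for 50.1% of all genes tested. EPCAM and CDH1 also stand in the epithelial marker list.

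Of 8 tested drivers of the mesenchymal state, 4 were called higher and 2 lower (median 0.25). Over all genes tested, 20.4% were called higher and 21.1% lower. SNAI1, a repressor of CDH1, rose, with 1597, 1452 and 1416 normalized reads in resistant libraries, against 657, 683 and 696 in control libraries (log2 fold change 1.13, limma adjusted p = 9.92e-12). FOXC2 (1.46) and PRRX1 (-1.76) were called on few reads, FOXC2 with 39 resistant and 12 control reads and PRRX1 with 5 resistant and 21 control reads. The FOXC2 call was lost without resistant 1 (1.24) and the PRRX1 call without resistant 2 (-1.16), control 1 (-1.63) or control 2 (-1.55), with either smaller pseudocount, with DESeq2 (-2.12) and with limma without trend (adjusted p = 0.0929). ZEB1 and ZEB2, which GRHL2 and OVOL2 oppose, were singled out after their values were seen. ZEB1 averaged 718 ± 17.7 in resistant and 695 ± 23.5 in control libraries and ZEB2 380 ± 63.5 in resistant and 350 ± 9.70 in control libraries; neither passed (log2 fold changes 0.05 and 0.11, limma adjusted p = 0.654 and 0.483), and both signs turned with median centring, to -0.09 and -0.03. TWIST1 and TWIST2 were not analysed here. MIR205HG, the host transcript of an epithelial microRNA that targets ZEB1 and ZEB2, had no read in resistant libraries and 11 reads in control libraries. With a floor of 3 reads over the resistant group, that was a 3.79-fold lower level, with no allowance for counting error in the 11 control reads.

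**Figure D4:**
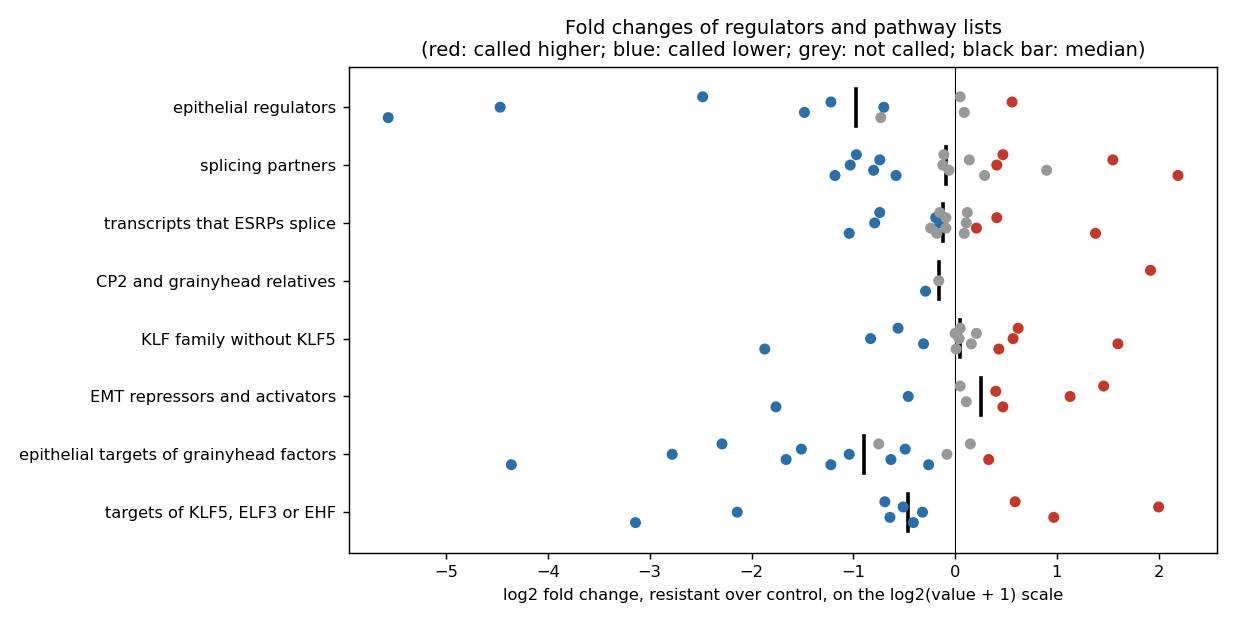
Log2 fold change, resistant over control (x axis), of each tested gene in the regulator group and in 7 related lists (rows); red and blue points passed the adjusted p threshold as higher and lower, grey points did not, and black bars are list medians. The regulators and the grainyhead targets have medians of -0.97 and -0.89, while the other lists lie between -0.46 and 0.25. The regulators and lists were chosen with earlier results of these data known.

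Further members of the regulators' protein families were taken from the lists and from the deposited family annotation. TFCP2L1, a CP2 factor related to the grainyhead genes, rose, with 134 ± 16.4 normalized reads in resistant and 34.7 ± 5.10 in control libraries (log2 fold change 1.92, limma adjusted p = 1.15e-08). TFCP2 was called lower (-0.29), a call lost without resistant 1 (-0.15), control 2 (-0.25) or control 3 (-0.30), when limma was run without trend (adjusted p = 0.209) or after quantile normalization (-0.23), and UBP1 did not pass (-0.16), but was called without resistant 3 (-0.23) and with median centring (-0.30). Of 19 further tested genes that the deposited annotation puts in the ETS family, 5 were higher and 5 lower (median 0.08), or 26.3% each way. With median centring 1 was higher and 6 lower (median -0.05). Of 571 further tested genes it puts in the zf-C2H2 family, 197 were higher and 64 lower (median 0.18), or 34.5% and 11.2%. This family holds OVOL1, OVOL2 and KLF5. In the same fit 20.4% of all genes tested were higher and 21.1% lower. With median centring the zf-C2H2 counts were 136 higher and 108 lower (median 0.04). Calls over all genes also moved with that scaling, from 5010 higher and 5194 lower to 3713 higher and 6666 lower. Both families' counts with median centring are to be read against the latter. Among epithelial ETS relatives, SPDEF did not pass (log2 fold change -0.10, adjusted p = 0.899), and ELF5 was too low to be tested, as was OVOL3, the remaining OVOL gene.

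Of 14 tested KLF genes other than KLF5, 4 rose and 4 fell (median 0.05). That is 28.6% each way, where 20.4% of all genes tested were called higher and 21.1% lower. KLF8, reported to promote epithelial-mesenchymal transition, rose, with 240, 213 and 216 normalized reads in resistant and 59.6, 72.7 and 88.7 in control libraries (log2 fold change 1.6, limma adjusted p = 8.48e-09). KLF1, an erythroid factor, fell on few reads, 7 in resistant and 31 in control libraries (-1.87, adjusted p = 0.00588). Genes reported as targets of KLF5, ELF3 or EHF were all called among the 10 tested, 3 higher and 7 lower (median -0.46). Of all genes tested, 41.5% were called. Some of the 10 calls were small changes of highly expressed genes, such as KRT18 (log2 fold change -0.41). CCND1, which encodes cyclin D1, averaged 1225 ± 76.8 in resistant and 5404 ± 133 in control libraries (-2.14). FGFBP1, a KLF5 target that releases fibroblast growth factors from the matrix, had 3 resistant and 45 control reads, a control level 15.5 times the resistant one (95% exact counting interval 4.98 to 78.1). PIGR, the epithelial immunoglobulin receptor, was called higher (log2 fold change 2) on 25 resistant and 4 control reads, a call lost without resistant 2 (1.59) or control 2 (1.5), with a pseudocount of 0.01 (4.45) and with limma without trend (adjusted p = 0.0858).

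**Figure D5:**
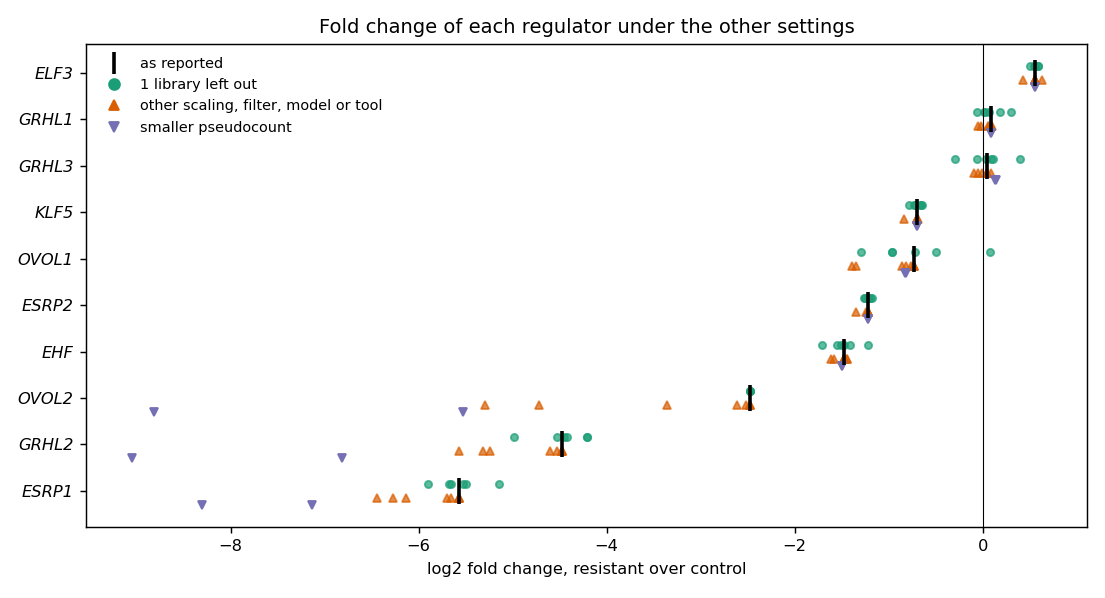
Log2 fold change of each regulator (x axis) as reported (black bar), with 1 library left out (circles), under another scaling, filter, model or tool (upward triangles) and with a smaller pseudocount (downward triangles). ESRP1, GRHL2 and OVOL2, which have 3 or fewer resistant reads, move the most with the pseudocount, and GRHL1, GRHL3 and OVOL1 lie on both sides of 0.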

How the data were processed

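RNA-seq of 3 resistant and 3 control libraries was analysed. The authors deposited, per library, a value on a signal scale for 30330 Ensembl genes with coordinates, length and transcription factor family. Per the submitters' processing notes, reads were placed on GRCh38. How reads were aligned, counted by strand and normalized is not given in the sources used here. All values (100%) were whole multiples of 1 step per library within 0.001 reads, so whole reads were recovered and count tests were run on them as alternatives: edgeR called 10159 genes. The gene name table paired 23695 identifiers with a symbol. The main test was limma-trend (limma 3.58.1, R 4.3.3, robust) on log2(value + 1), which understates the change of low genes, for the 24560 genes with 3 or more libraries at a value of at least 1, two-sided, with Benjamini-Hochberg adjustment at 0.05. Alternatives were each library left out, a replicate block, median centring, quantile normalization, pseudocounts of 0.01 and 0.1, a minimum of 5 or no filter, no trend, limma-voom, DESeq2 1.42.0 and edgeR 4.0.16 with its quasi-likelihood test. The regulators and lists were chosen with earlier results of these data known. List genes named were those called with an absolute log2 fold change of at least 1, up to 4 per direction, and all genes of lists of 3 or fewer, unless said otherwise. Intervals cover counting error only. The floor of 3 reads covers the counting error of the group set to it, and not that of the other group. Exon overlaps used GENCODE 29 (GRCh38). The tests were checked on simulated data with changes of up to 2-fold put into well-covered genes only. That check does not reach genes with few reads, such as GRHL2 and OVOL2.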

Additional observations from a re-analysis of the deposited data

How the results depend on the processing

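The 7 calls among the regulators kept their direction and stayed below the threshold in every one of the 17 other settings that gave a value, with log2 fold changes of -8.30 to -5.15 for ESRP1, -1.35 to -1.18 for ESRP2, -9.05 to -4.21 for GRHL2, 0.43 to 0.63 for ELF3, -1.71 to -1.22 for EHF and -0.84 to -0.65 for KLF5. OVOL2 could be tested in 13 of the 17 (-8.82 to -2.48, adjusted p up to 0.0495), since with a minimum of 5 or without a control library it no longer passed the filter. Uncalled regulators changed sign: GRHL1 with quantile normalization (-0.02), median centring (-0.05) and without control 3 (-0.06); GRHL3 with quantile normalization (-0.01), median centring (-0.09), edgeR (-0.05) and without resistant 2 (-0.06) or control 3 (-0.29); OVOL1 without control 1 (0.08). So did FGFR2 with median centring (-0.02) and without resistant 1 (-0.15) or control 1 (-0.08), SPDEF without resistant 1 (0.04), resistant 3 (0.06) or control 3 (0.02), ZEB1 with median centring (-0.09) and ZEB2 with median centring (-0.03) and without resistant 1 (-0.01). With 1 library left out, the values ran from -0.06 to 0.30 for GRHL1, -0.29 to 0.40 for GRHL3, -1.29 to 0.08 for OVOL1, -0.15 to 0.37 for FGFR2, -0.39 to 0.06 for SPDEF and -0.01 to 0.23 for ZEB2. The cause was not tested. Calls over all genes, 5010 higher and 5194 lower, became 3713 higher and 6666 lower with median centring, so the balance of directions depends on the scaling. Replicate numbers did not pair the libraries (correlation of deviations between same-numbered libraries -0.00148, 0.000115 and 0.00671); with the replicate block 10175 genes were called, against 10204 without it, and the regulators' calls stayed 6 lower and 1 higher. Depth limits statements on GRHL3, OVOL1 and OVOL2.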
